A study of Mus musculus with 2 samples.

Results

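The genes described here are 9 neurotrophic factors and receptors of such factors, taken from the 31053 genes counted in fibro/adipogenic progenitors (FAPs) of mouse limb muscle. The 3 ligand genes are *Gdnf*, *Bdnf* and *Ntf3*, the receptor genes of the GDNF family are *Gfra1*, *Gfra2* and *Ret*, and the neurotrophin receptor genes are *Ngfr*, *Ntrk2* and *Ntrk3*. They were chosen by name, with earlier results of these data known, as genes through which FAPs could signal to, or respond to signals of, nerve. FAPs are mesenchymal cells that lie between myofibers and can give rise to fibroblasts and adipocytes. The cells came from 3-week-old C57BL/6 mice and were sorted as 7AAD-Lin-Vcam1-Sca1+, where the lineage stain covered CD45 and CD31. One genotype was Bap1f/f, hereafter Bap1WT, which carries floxed *Bap1* alleles and no Cre. The other was Prx1-Cre;Bap1f/f, hereafter Bap1ΔMPC, in which Cre is driven by *Prx1* regulatory sequence that is active in limb mesenchyme and so in more cells than FAPs. Both genotypes carried the floxed alleles, and no Cre-only control was analysed here. *Bap1* encodes a nuclear deubiquitinase that removes ubiquitin from histone H2A. Each genotype was measured as 1 droplet scRNA-Seq library, so no difference between genotypes has a replicate check, no p-value is given, and genotype and library cannot be told apart.

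Neurotrophic factors are secreted proteins that keep neurons alive and guide their growth, and skeletal muscle is a known source of them for motor and sensory axons. GDNF binds the membrane-anchored co-receptor GFRα1, and the complex activates the receptor tyrosine kinase RET, whereas GFRα2 is the co-receptor preferred by neurturin. BDNF and neurotrophin-3 are neurotrophins that act through the receptor tyrosine kinases TrkB (*Ntrk2*) and TrkC (*Ntrk3*), and p75NTR (*Ngfr*) binds all neurotrophins. TrkB also exists in a truncated form without the kinase domain, which 3′ gene counts cannot tell from the full-length form.

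The library labelled Bap1WT held 4103 cells and 51015705 UMIs, and the library labelled Bap1ΔMPC held 4378 cells and 49540066 UMIs. The median was 12232 and 11017.5 UMIs per cell, and 5 of the cell barcodes occurred in both libraries. *Bap1* itself had 17.6 and 21.6 counts per 1000000 UMIs (CPM), which checks nothing, since 3′ counts do not show whether a transcript lacks the floxed exons. The FAP marker *Pdgfra* was detected in 93.9% and 84.1% of cells, while *Ptprc* (CD45) and the muscle stem cell genes *Pax7*, *Myf5* and *Myod1* had 0 UMIs. These 0 counts do not check the sort, since the authors removed cells with high levels of other cell types' markers before deposit. Of the other cell types that the gate could hold, 10 Schwann cell markers summed to 6.21 and 5.93 CPM, with 9 and 0 UMIs of the defining gene *Sox10*. Adipocyte markers summed to 5.10 and 53.5 CPM and cycling markers to 32.8 and 60.4 CPM, and both thus moved with the library. The muscle stem cell list summed to 41.8 and 24.7 CPM, mostly from *Vcam1*, which had a UMI in 26.3% and 12.6% of cells although the gate was Vcam1-. Immune markers summed to 5.10 and 7.65 CPM, mostly from *Cd68*, found in 4.19% and 6.05% of cells. *Pecam1* (CD31), the other named gene of the lineage stain, had a UMI in 2.29% and 3.88% of cells. Endothelial markers summed to 92.8 and 119 CPM, mostly from *Tek* (78.5 and 107 CPM), and mural markers to 89.8 and 64.3 CPM. Endoneurial markers summed to 481 and 613 CPM, mostly from *Abca8a* (371 and 458 CPM). The part of these lists in the results was not tested. The sum of the tendon markers also moved with the library, from 74.1 to 128 CPM. Among them *Chad* went from 1.71 to 20.8 CPM and *Tnmd* from 23.2 to 60.4 CPM, while *Fmod* alone fell, from 43.3 to 24.5 CPM. Cells were called Dpp4-type when *Pi16*, *Sema3c*, *Anxa3* and *Efemp1* together made up at least 25 of 10000 UMIs. This held for 1050 cells (25.6%) of the library labelled Bap1WT and 1251 cells (28.6%) of the library labelled Bap1ΔMPC. The score is continuous, and 210 and 337 cells had a score between 20 and 30, close to the cut. None of the 9 genes enters the score.

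In all cells *Gdnf* showed the largest difference of the 9 genes between the libraries, with *Bdnf* next. In Dpp4-type cells *Gfra1* had the largest log2 ratio, 2.60, with *Gdnf* next. *Gdnf* had 13 UMIs in the library labelled Bap1WT, or 0.255 CPM, with an exact Poisson 95% interval from 0.136 to 0.436. The library labelled Bap1ΔMPC had 99 *Gdnf* UMIs, or 2.00 CPM (1.62 to 2.43). It was thus 7.84-fold higher in the latter, a log2 ratio of 2.97 (2.13 to 3.93), and 106 of 14729 genes had a larger ratio. The intervals here and below cover counting error only, since UMIs of cells of 1 library share that library. *Gdnf* was rare in both libraries, with a UMI in 0.268% and 1.94% of cells, and at most 2 and 5 UMIs in a single cell. The difference was present in both kinds of cells. In Dpp4-type cells *Gdnf* had 5 and 27 UMIs, a log2 ratio of 2.37 (0.97 to 4.10), and in the other cells 8 and 72 UMIs, a log2 ratio of 3.26 (2.2 to 4.52). *Gdnf* reached the minimum of 20 UMIs used for counting genes below only through the library labelled Bap1ΔMPC, in every set of cells. Cluster 1 of that library (1316 cells) held 43.4% of its *Gdnf* UMIs, at 3.12 CPM, and cluster 4 (976 cells) held 25.3%, at 2.18 CPM. Cluster 9 held 18.2%, at 3.18 CPM, a level close to that of cluster 1. It had 437 cells of that library and 50 of the other, and was led by *Ltbp2*, *Adamts8* and the tendon marker *Chad*. When each cell was thinned to 5000 UMIs, *Gdnf* was seen in 0.126% and 1.06% of cells, in the same order of the libraries.

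*Bdnf* had 173 UMIs (3.39 CPM, 2.90 to 3.94) in the library labelled Bap1WT and 533 UMIs (10.8 CPM, 9.86 to 11.7) in the library labelled Bap1ΔMPC. The fold difference was 3.17, a log2 ratio of 1.67 (1.42 to 1.92). This lay close to 3-fold, and the log2 ratio was 1.46 without the cells that had a UMI of a cycling marker and 1.57 with TMM scaling, both below 3-fold. The difference was carried by the cells outside the Dpp4-type class, in which *Bdnf* had 3.74 CPM and 13.7 CPM, a 3.67-fold difference. In Dpp4-type cells the levels were 2.48 CPM and 3.79 CPM, with a log2 ratio of 0.61 whose interval reached from -0.02 to 1.27. The difference between these log2 ratios was -1.26 (-1.96 to -0.55). *Bdnf* was concentrated in few cells: 2.12% and 5.50% of cells had a UMI, single cells held up to 17 and 15 UMIs, and the 1% of cells with the most *Bdnf* UMIs held 73.4% and 45.2% of them.

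*Ntf3*, which encodes neurotrophin-3, differed less. It had 1085 UMIs (21.3 CPM) in the library labelled Bap1WT and 1327 UMIs (26.8 CPM) in the library labelled Bap1ΔMPC, a log2 ratio of 0.33, and 18.5% and 20.0% of cells had a UMI. Here the larger difference was in Dpp4-type cells, where *Ntf3* was at 4.04 CPM and 11.3 CPM, 2.80-fold higher in the library labelled Bap1ΔMPC (log2 ratio 1.49, 1.04 to 1.95). In the other cells it was at 27.9 CPM and 33.4 CPM, a log2 ratio of 0.26.

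**Figure D1:**
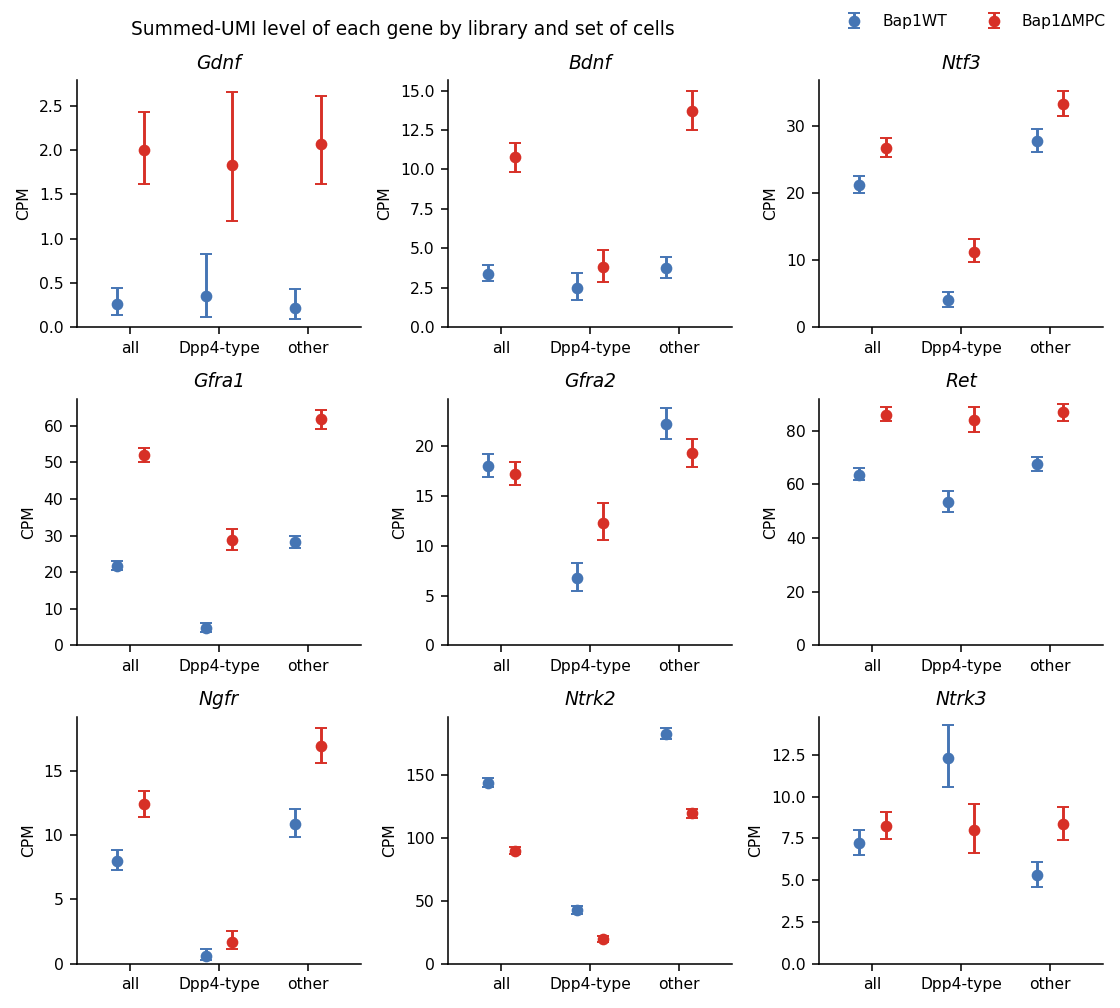
Each panel plots the level of 1 gene in CPM of summed UMIs, on a linear axis that starts at 0, in all cells, Dpp4-type cells and other cells of the library labelled Bap1WT (blue) and the library labelled Bap1ΔMPC (red). Points are values and bars are exact Poisson 95% intervals, and the reader should see that *Gdnf* was higher in red in each set of cells while *Ntrk2* was higher in blue in each set.

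In the GENCODE annotation of build GRCm38, *Gdnf* spans chr15:7810846-7837575 (plus strand), *Bdnf* chr2:109674700-109727007 (plus) and *Ntf3* chr6:126101412-126166910 (minus). The GDNF family receptor genes are *Gfra1* at chr19:58235604-58455909 (minus), *Gfra2* at chr14:70890120-70979838 (plus) and *Ret* at chr6:118151745-118197718 (minus). The neurotrophin receptor genes are *Ngfr* at chr11:95568818-95587735 (minus), *Ntrk2* at chr13:58806569-59133970 (plus) and *Ntrk3* at chr7:78175959-78738012 (minus). *Ntrk2* overlaps 1 and *Ntrk3* 2 other annotated genes on the same strand, so their counts are less certain where reads could be assigned to either gene.

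The promoters of the ligand and receptor genes with the largest differences in all cells are shown so that their base composition can be read directly. RefSeq windows of mouse build GRCm38.p6, from 250 bases before to 50 bases after a transcript start, were given for 6 of the 9 genes, in 14 windows. CG dinucleotides, the sites of DNA methylation, are in capitals, and sequences run 5′ to 3′ on the strand of the gene. *Gdnf* lies on chromosome 15 and has windows at chr15:7809798-7810097 and chr15:7813477-7813776 on the plus strand. *Bdnf* lies on chromosome 2 and has 7 windows, of which the one with the most CG dinucleotides, chr2:109694159-109694458 on the plus strand, is shown. *Gfra1* has 1 window, chr19:58455349-58455648 on the minus strand, and *Ntrk2*, the gene lower in the library labelled Bap1ΔMPC, has 1 window, chr13:58806319-58806618 on the plus strand.
Gdnf window 1: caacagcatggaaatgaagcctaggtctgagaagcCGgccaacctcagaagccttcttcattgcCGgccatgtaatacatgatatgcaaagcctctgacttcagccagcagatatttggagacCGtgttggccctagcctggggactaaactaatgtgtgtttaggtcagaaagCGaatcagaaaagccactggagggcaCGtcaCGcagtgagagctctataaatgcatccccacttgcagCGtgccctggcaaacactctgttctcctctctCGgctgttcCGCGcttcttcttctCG
Gdnf window 2: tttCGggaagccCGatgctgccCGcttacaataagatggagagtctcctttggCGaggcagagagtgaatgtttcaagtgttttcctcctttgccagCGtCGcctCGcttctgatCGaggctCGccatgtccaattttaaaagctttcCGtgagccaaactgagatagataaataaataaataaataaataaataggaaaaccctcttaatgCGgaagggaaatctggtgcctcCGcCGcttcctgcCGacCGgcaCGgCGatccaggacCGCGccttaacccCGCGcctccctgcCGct
Bdnf window 5: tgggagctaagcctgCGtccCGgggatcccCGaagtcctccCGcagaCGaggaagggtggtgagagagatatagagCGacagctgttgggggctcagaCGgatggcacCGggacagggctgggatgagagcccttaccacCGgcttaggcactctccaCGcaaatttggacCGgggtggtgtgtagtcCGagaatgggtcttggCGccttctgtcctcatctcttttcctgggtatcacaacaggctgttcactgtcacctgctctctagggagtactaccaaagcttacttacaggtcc
Gfra1 window: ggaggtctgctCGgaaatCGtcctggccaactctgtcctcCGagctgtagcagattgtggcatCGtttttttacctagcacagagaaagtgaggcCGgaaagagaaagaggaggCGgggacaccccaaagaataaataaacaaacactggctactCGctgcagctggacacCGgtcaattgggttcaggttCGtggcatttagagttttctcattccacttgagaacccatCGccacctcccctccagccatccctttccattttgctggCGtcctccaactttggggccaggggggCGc
Ntrk2 window: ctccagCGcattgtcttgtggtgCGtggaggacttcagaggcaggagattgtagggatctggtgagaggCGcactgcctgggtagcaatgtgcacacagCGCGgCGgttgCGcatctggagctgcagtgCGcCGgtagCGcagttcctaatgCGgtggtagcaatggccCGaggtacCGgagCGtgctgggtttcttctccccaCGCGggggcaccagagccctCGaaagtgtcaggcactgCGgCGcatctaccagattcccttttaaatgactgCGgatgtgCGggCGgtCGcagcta
The windows of *Gdnf* differed from each other in composition. The first held 11 CG dinucleotides, an observed over expected ratio of 0.552, and TATAAA at 31 bases before the start, whereas the second held 22 and a ratio of 1.11, above 98.1% of 32851 mouse windows. The median of all windows was a ratio of 0.384 and 7 CG dinucleotides. The *Bdnf* window shown held 13 and a ratio of 0.519, the *Gfra1* window 12 and 0.549, and the *Ntrk2* window 23 and 0.835. On either strand, TATAAA occurred in 13.6% of all windows and in 1 of the 14 windows of these genes. CACGTG occurred in 7.15% of all windows and in 1 of the 14, a window of *Ntf3*, and TGACGTCA in 1.79% and in 0 of the 14. These matches describe letters only, and the 3′ counts do not tell which start a transcript came from.

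Among the receptor genes of the GDNF family, *Gfra1* and *Ret* were higher in the library labelled Bap1ΔMPC and the interval for *Gfra2* included equal levels. *Gfra1*, which encodes the GDNF co-receptor, had 1109 UMIs (21.7 CPM, 20.5 to 23.1) in the library labelled Bap1WT and 2573 UMIs (51.9 CPM, 50 to 54) in the library labelled Bap1ΔMPC, 2.39-fold higher. The share of cells with a *Gfra1* UMI was 16.4% and 28.0%, and 9.19% and 18.0% after thinning. The difference was larger in Dpp4-type cells, in which *Gfra1* had 67 UMIs (4.75 CPM) and 425 UMIs (28.8 CPM), 6.06-fold higher (4.68 to 7.97), and 72 of 12517 genes had a larger ratio. In the other cells it had 28.2 CPM and 61.8 CPM, 2.19-fold higher. The log2 ratio in Dpp4-type cells exceeded that in the other cells by 1.47 (1.08 to 1.88). *Gfra1* was detected in 5.24% and 20.9% of Dpp4-type cells.

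*Ret*, which encodes the signalling receptor for the GDNF family, had 3247 UMIs (63.6 CPM) in the library labelled Bap1WT and 4257 UMIs (85.9 CPM) in the library labelled Bap1ΔMPC, a log2 ratio of 0.43. The log2 ratio was 0.65 in Dpp4-type cells (53.4 and 83.9 CPM) and 0.36 in the other cells (67.6 and 86.8 CPM). *Gfra2*, which encodes the neurturin co-receptor, had 919 UMIs (18.0 CPM) and 853 UMIs (17.2 CPM), and the interval of its log2 ratio, -0.20 to 0.07, included 0. Its classes went in opposite directions. *Gfra2* had 6.80 and 12.3 CPM in Dpp4-type cells, a log2 ratio of 0.86 (0.49 to 1.23), and 22.3 and 19.3 CPM in the other cells, a log2 ratio of -0.21 (-0.36 to -0.06). Without cells that had a UMI of a tendon marker, the ratio in the other cells was -0.06 (-0.23 to 0.11), an interval that included 0.

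*Ret* was found more often in cells that also had *Gfra1* than in cells that did not, in each library. At 5000 UMIs per cell, *Ret* was seen in 39.9% of 366 *Gfra1*-positive cells (exact binomial 95% interval 34.8% to 45.1%) and in 17.6% of *Gfra1*-negative cells of the library labelled Bap1WT. The shares in the library labelled Bap1ΔMPC were 45.7% of 751 cells (42.1% to 49.3%) and 22.2%. *Gfra2* showed no such excess, with *Ret* in 16.7% of positive and 19.9% of negative cells of the library labelled Bap1WT, and in 19.9% and 26.9% of those of the library labelled Bap1ΔMPC. *Gdnf*-positive cells were too few for such a comparison, with 5 and 44 cells at this depth.

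Of the neurotrophin receptor genes, *Ntrk2* was lower in the library labelled Bap1ΔMPC, *Ngfr* was higher, and *Ntrk3* differed in direction between the classes. *Ntrk2* (TrkB) had 7371 UMIs (144 CPM, 141 to 148) in the library labelled Bap1WT and 4456 UMIs (89.9 CPM, 87.3 to 92.6) in the library labelled Bap1ΔMPC, 1.61-fold higher in the former. The share of cells with a UMI was 61.5% and 36.6%, and 43.3% and 24.7% after thinning to 5000 UMIs. Both classes had the same direction, with 42.5 and 19.6 CPM in Dpp4-type cells (log2 ratio -1.11) and 183 and 120 CPM in the other cells (log2 ratio -0.62). In Dpp4-type cells 450 of 12517 genes had a lower ratio than *Ntrk2*, and in all cells 1339 of 14729 had.

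*Ntrk3* (TrkC) had 370 UMIs (7.25 CPM) and 408 UMIs (8.24 CPM), and the interval of its log2 ratio, -0.02 to 0.39, included 0. In Dpp4-type cells it had 12.3 CPM in the library labelled Bap1WT and 7.99 CPM in the library labelled Bap1ΔMPC, a log2 ratio of -0.63 (-0.98 to -0.28). In the other cells it had 5.31 and 8.34 CPM, a log2 ratio of 0.65 (0.38 to 0.92). Opposite directions with both intervals clear of 0 were thus found for 2 of the 9 genes, *Gfra2* and *Ntrk3*, where 2.83% of 12444 genes with at least 20 UMIs in each class had them. For *Ntrk3* the ratio in Dpp4-type cells depended on the cut of the score and was -0.26 (-0.58 to 0.05) when cells from a score of 15 were taken in. *Ngfr* (p75NTR) had 409 UMIs (8.02 CPM) and 613 UMIs (12.4 CPM), a log2 ratio of 0.63. It was nearly confined to the cells outside the Dpp4-type class, with 401 and 588 UMIs there and 8 and 25 UMIs in Dpp4-type cells. The ratio in Dpp4-type cells, 2.99-fold (log2 ratio 1.58, 0.39 to 2.94), rests on these few UMIs. It passed 3-fold when the cut was raised to 40 (log2 ratio 2.38) and without cells that had a UMI of an adipocyte marker (1.61).

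Counted against all genes, 2 of the 9 genes were over 3-fold higher in the library labelled Bap1ΔMPC in each set of cells, and the named genes differed between the sets. Genes with at least 20 UMIs in both libraries together were counted, and all 9 had that many. *Gdnf* in each set, and *Ngfr* in Dpp4-type cells, had that many only through the library labelled Bap1ΔMPC. The 9 genes were chosen with earlier results of these data known, so these counts and medians only describe them. In all cells *Gdnf* and *Bdnf* were over 3-fold higher, where 3.15% of 14729 genes were, and none of the 9 was over 3-fold lower, where 2.12% of genes were. In Dpp4-type cells *Gdnf* and *Gfra1* were over 3-fold higher against 1.89% of 12517 genes, and none lower against 1.63%. In the other cells *Gdnf* and *Bdnf* were over 3-fold higher against 3.68% of 14271 genes, and none lower against 2.18%. The median log2 ratio of the 9 genes was 0.43 in all cells, 0.86 in Dpp4-type cells and 0.64 in the other cells, beside 0.10, 0.07 and 0.11 for all genes counted. Cells that had an adipocyte marker UMI made up 4.07% and 12.5% of the libraries. Without them each of these genes stayed over 3-fold higher in the same sets of cells, with log2 ratios of 2.96 for *Gdnf* and 1.73 for *Bdnf* in all cells and 2.60 for *Gfra1* in Dpp4-type cells. Cells with a tendon marker UMI made up 16.7% and 16.2%, and without them *Gdnf* had 3.33 and *Bdnf* 1.68 in all cells, and *Gfra1* 2.54 in Dpp4-type cells.

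**Figure D2:**
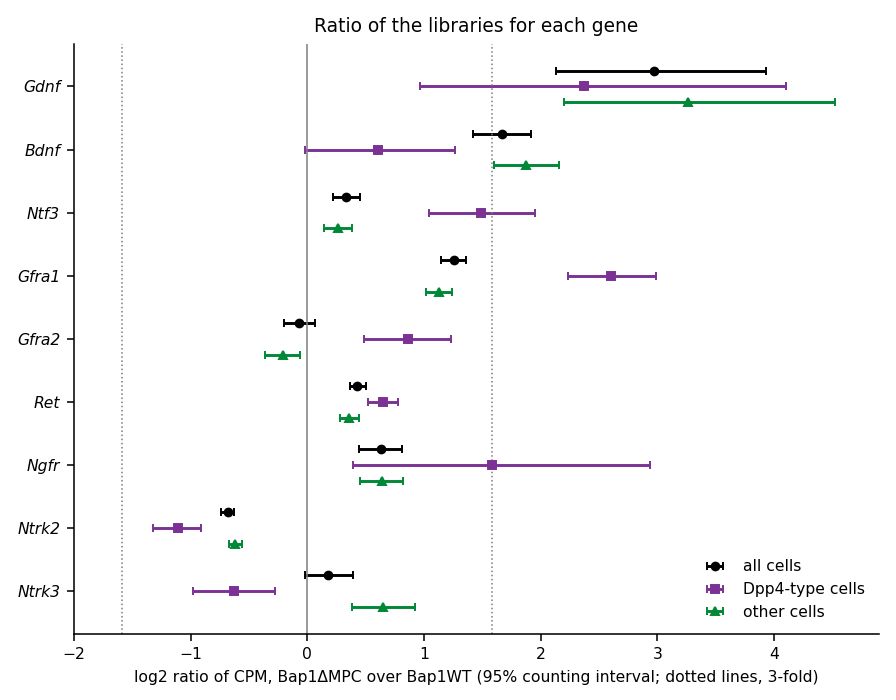
The log2 ratio of CPM, library labelled Bap1ΔMPC over library labelled Bap1WT, is plotted for each of the 9 genes in all cells, Dpp4-type cells and other cells. Points are ratios, bars are exact conditional 95% intervals for counting error and dotted lines mark 3-fold, and the points of *Gdnf* lie beyond the line in each set while those of *Ntrk2* lie below 0 in each set.

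Within each library the genes also differed between Dpp4-type and other cells. In the library labelled Bap1WT, *Ntf3*, *Gfra1*, *Gfra2*, *Ngfr* and *Ntrk2* were over 3-fold lower in Dpp4-type cells, 5 of the 8 genes with enough UMIs, where 7.06% of 13582 genes were, and none of the 8 was over 3-fold higher, where 3.01% were. In the library labelled Bap1ΔMPC, *Bdnf*, *Ngfr* and *Ntrk2* were over 3-fold lower in Dpp4-type cells, 3 of 9 against 7.49% of 13680 genes, and none was higher against 2.19%. These counts depended on the score. With a cut at 15 *Gfra2* in the library labelled Bap1WT was at a log2 ratio of -1.26, below 3-fold, and *Ntf3* in the library labelled Bap1ΔMPC passed 3-fold with a cut at 40 (-1.69) and with the other score (-1.60), which takes in *Dpp4* and *Efhd1* and leaves out *Efemp1*. The log2 ratio of Dpp4-type over other cells for *Gfra1* was -2.57 in the library labelled Bap1WT and -1.10 in the library labelled Bap1ΔMPC. For *Ntf3* it was -2.79 and -1.56, and for *Gfra2* -1.71 and -0.65. The contrast between the classes was thus smaller in the library labelled Bap1ΔMPC for these 3 genes. The reverse held for *Bdnf*, with -0.59 and -1.85, and for *Ntrk2*, with -2.11 and -2.61. The class itself also differed between the libraries, with a median score of Dpp4-type cells of 59.7 and 49.1. *Cxcl14*, the authors' marker of the other FAP subpopulation, was at 10.1 and 63.2 CPM in Dpp4-type cells. It was at 317 and 956 CPM in the other cells. The part of this in the contrasts was not tested. In the library labelled Bap1WT, *Ntrk3* alone was higher in Dpp4-type cells with an interval clear of 0. Its log2 ratio was 1.21 (0.91 to 1.52), against -0.06 in the library labelled Bap1ΔMPC. *Gdnf*, with 5 and 8 UMIs in the classes of the library labelled Bap1WT, had 0.71 (-1.25 to 2.50).

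The levels varied along the score on both sides of the cut. In the library labelled Bap1WT, *Ntrk2* was at 203 CPM in cells with a score under 5, 158 CPM from 5 to 25, 66.5 CPM from 25 to 50, 31.9 CPM from 50 to 100 and 15.2 CPM above 100. The same bins of the library labelled Bap1ΔMPC had 140, 82.8, 28.1, 10.9 and 6.58 CPM. *Gfra1* went from 29.4 CPM in the lowest to 2.63 CPM in the highest bin of the library labelled Bap1WT, and from 63.3 CPM to 20.8 CPM in the library labelled Bap1ΔMPC. The ratio between the libraries was thus larger at the high than at the low end of the score for *Gfra1*. For *Ntrk3* the ends of the score had opposite orders, with 5.58 CPM in the lowest and 18.9 CPM in the highest bin of the library labelled Bap1WT, and 7.35 CPM and 2.19 CPM, from only 2 UMIs in the highest bin, in those of the library labelled Bap1ΔMPC. *Ret* was at its highest between 5 and 25 in both libraries, at 76.7 CPM and 106 CPM.

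**Figure D3:**
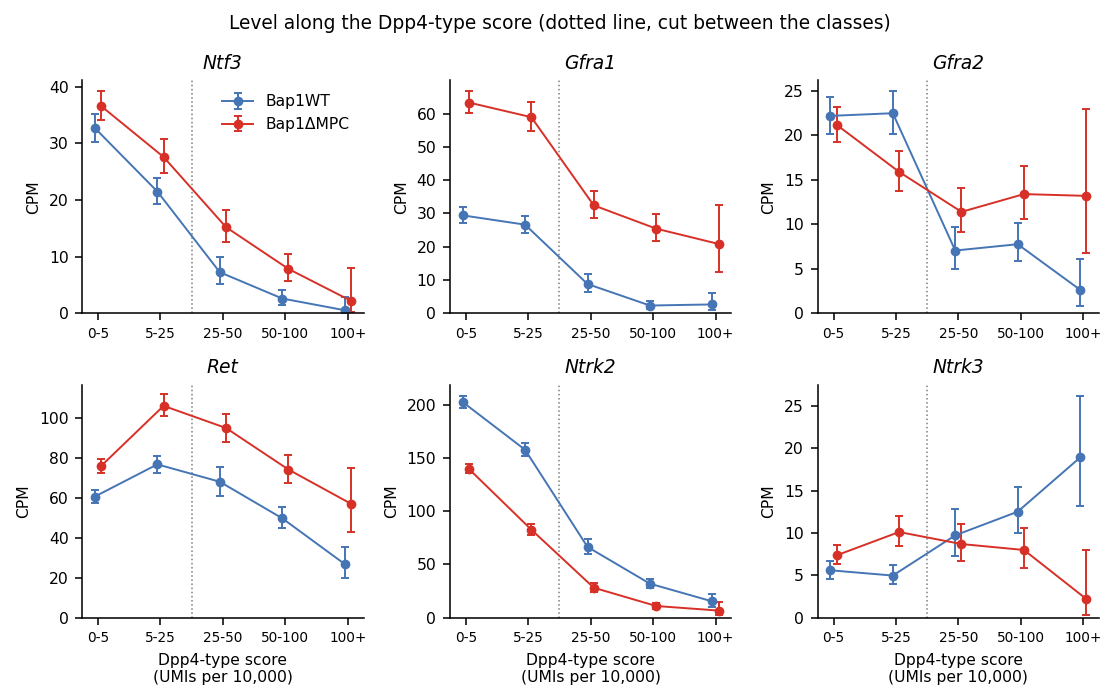
The CPM of 6 of the 9 genes, those other than *Gdnf*, *Bdnf* and *Ngfr*, is plotted against the bin of the Dpp4-type score, in UMIs of the 4 score genes per 10000 UMIs, for the library labelled Bap1WT (blue) and the library labelled Bap1ΔMPC (red), with exact Poisson 95% intervals as bars. *Ntrk2* and *Ntf3* are lower toward high scores in both libraries, and *Ntrk3* is highest in the bin above 100 in blue and lowest in that bin in red.

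To describe where among FAPs each gene was found, the merged cells were clustered without the 9 genes and without other genes of their pathways. The 10 clusters were mostly of 1 library each, so a cluster may be that library rather than a kind of cell, and they are given by number and leading genes. *Ret* reached 205 CPM in cluster 6 of the library labelled Bap1WT (861 cells, led by *Susd5*, *Adra1a*, *Sorl1* and *Hsd11b1*), which held 66.7% of its UMIs. It reached 200 CPM in cluster 3 of the library labelled Bap1ΔMPC (1091 cells), which held 55.7% of its UMIs, while cluster 4 of that library held a further 24.9% at 92.4 CPM. Cluster 3 was led by *Rtl4*, *Trpc5*, *Chst8* and *Pcsk2*, and the perineurial marker *Tenm2* was also among its leading genes. Over all cells *Tenm2* had 0.392 and 5.43 CPM in the libraries labelled Bap1WT and Bap1ΔMPC. Of the other perineurial markers, *Cldn1* (5.45 and 8.03 CPM) and *Itgb4* (1.59 and 1.86 CPM) were also higher in the latter. *Slc2a1* (6.55 and 5.19 CPM), *Krt19* (5.41 and 3.98 CPM) and *Lypd2* (3.16 and 1.43 CPM) were lower. *Cldn19* had 2 and 4 UMIs and *Slc22a6* had 0. A perineurial identity of cluster 3 was not tested. *Gfra1* had its highest level of the library labelled Bap1ΔMPC in this same cluster 3, at 120 CPM, and *Ntf3* had its highest level there as well, at 52.4 CPM. In the library labelled Bap1WT, *Gfra1* was at 47.0 CPM in cluster 6 and 47.2 CPM in cluster 7.

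Cluster 8, led by *Art4*, *Slc11a1* and *Angpt2*, set *Gfra2* apart from *Gfra1*. In its 611 cells of the library labelled Bap1WT, *Gfra2* was at 50.7 CPM with a UMI in 30.3% of cells, while *Gfra1* had 5 UMIs (0.724 CPM) and was found in 0.818% of cells. In its 55 cells of the library labelled Bap1ΔMPC, *Gfra2* was at 101 CPM and *Gfra1* at 3.24 CPM. Among clusters with at least 50 cells of a library, *Ntrk3* and *Bdnf* also had their highest levels of the library labelled Bap1WT here, with 19.7 and 11.0 CPM. The 55 cells of the other library gave 18 *Ntrk3* UMIs (29.2 CPM, 17.3 to 46.1), an interval that overlapped that of cluster 3 (15.5 CPM, 13.3 to 17.9). They gave 15 *Bdnf* UMIs (24.3 CPM, 13.6 to 40.1), which did not differ beyond counting error from cluster 1 at 22.0 CPM (19.6 to 24.6). That cluster (1316 cells, led by *Saa3*, *Ces2b* and *Lcn2*) held 56.8% of the *Bdnf* UMIs of the library labelled Bap1ΔMPC, in 8.66% of its cells. It also held 55.9% of that library's *Ntrk2* UMIs and 45.8% of its *Ngfr* UMIs.

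Most cells of clusters 2 and 4 were Dpp4-type, 88.6% and 88.3% of them. Cluster 2, led by *Akr1c18*, *Ccdc42* and *Igsf1*, held 1009 cells of the library labelled Bap1WT and 224 of the library labelled Bap1ΔMPC. Cluster 4, led by *Plet1*, *Gsta1* and *Cldn11*, held 4 and 976 cells. Within cluster 2, *Gfra1* was at 3.51 CPM (2.59 to 4.65) in the library labelled Bap1WT and 1.86 CPM (0.603 to 4.33) in the library labelled Bap1ΔMPC, whereas it was at 26.8 CPM (23.9 to 30) in cluster 4 of the latter. Of the 425 *Gfra1* UMIs in Dpp4-type cells of the library labelled Bap1ΔMPC, 278 (65.4%) lay in cluster 4 at 27.5 CPM, 107 (25.2%) in 121 cells of cluster 3 at 81.2 CPM, and 5 (1.18%) in cluster 2. *Ntrk2* was at 39.6 and 34.2 CPM in cluster 2 and at 9.85 CPM in cluster 4, and *Ret* at 50.3 and 46.4 CPM in cluster 2 and at 92.4 CPM in cluster 4. Cluster 4 was thus higher in *Gfra1* and *Ret* and lower in *Ntrk2* than both libraries' cells of cluster 2.

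**Figure D4:**
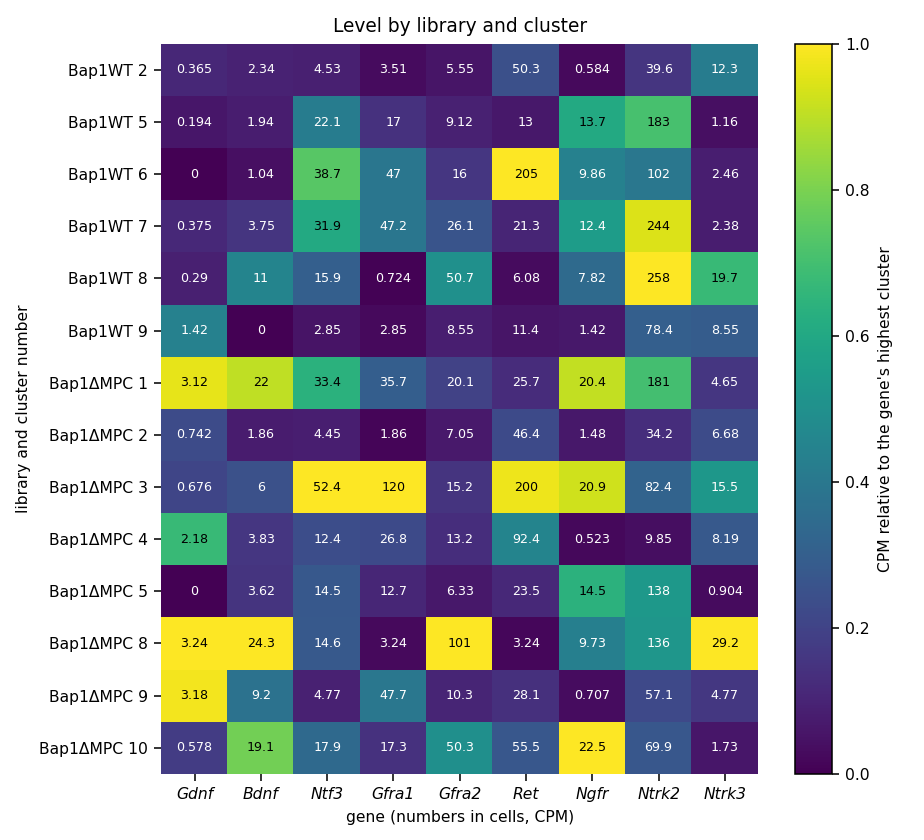
The CPM of each gene is printed by numbered cluster, with colour giving it relative to the gene's highest value, for the library labelled Bap1WT and the library labelled Bap1ΔMPC, for clusters with at least 50 cells of that library. *Ret* is highest in cluster 6 of the library labelled Bap1WT, at 205 CPM, and in cluster 3 of the library labelled Bap1ΔMPC, at 200 CPM, followed there by cluster 4 at 92.4 CPM, and *Gfra2* is highest in cluster 8 of both.

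No cell type that should lack these genes was present among the deposited cells, so the share of cells that free RNA gives was not measured. Transcripts of myofibers were seen in cells of both libraries, with *Acta1* in 12.5% and 6.74% of cells and *Tnni2* in 7.77% and 9.64%. The 7 myofiber markers summed to 53.6 and 64.3 CPM in Dpp4-type cells and to 77.9 and 46.4 CPM in the other cells. The erythroid gene *Hbb-bs* had a UMI in 6.17% and 8.34% of cells, while the erythroid markers summed to 37.8 and 23.6 CPM. These values had no common direction, and a difference in free RNA between the libraries was not tested. Within the library labelled Bap1WT, *Gfra1* was found in 0.818% of cells of cluster 8 and 35.0% of cells of cluster 6, with a median depth of 11120 and 12049 UMIs in that library's cells of these clusters.

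The genes most like each member were found by the Pearson correlation over cells of log-normalized values, within each library and averaged over the libraries. These values describe 4103 and 4378 cells that share a library and its depth, and sparse counts keep them low. For *Gfra1* the closest of 9832 genes were *Smoc2* (0.31), *Ret* (0.26) and *Vwa1* (0.24). *Ret* was closest to *Lamc1* (0.46), *Hspg2* (0.45) and *Oaf* (0.45), the former pair encoding a laminin chain and perlecan of basement membranes. *Ntf3* was closest to *Lpl* (0.25), *Col4a1* (0.25) and *Col4a2* (0.23), of which the collagen IV genes also encode basement membrane proteins. *Ntrk2* was closest to *Il11ra1* (0.39), *Cst3* (0.35) and *Cygb* (0.35), and *Gfra2* to *Gdf10* (0.22), *Hhip* (0.19) and *Pltp* (0.19). For *Ngfr* these were *Cxcl14* (0.21), *Lpl* (0.19) and *Dlk1* (0.19), and for *Ntrk3* *Bace2* (0.12), *Pltp* (0.09) and *Igfbp5* (0.09). *Gdnf* and *Bdnf* had under 200 UMIs in a library and were left out. Between the members, *Gfra1* and *Ret* had a correlation of 0.22 in the library labelled Bap1WT and 0.29 in the library labelled Bap1ΔMPC, and *Ret* and *Ntrk2* had -0.17 and -0.13.

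The other genes of these pathways were taken from 4 lists (neurotrophin system, GDNF family system, CNTF and LIF cytokines, other trophic factors), with 100 genes including the 9, of which 98 were in the files. In all cells 7 of the 86 with enough UMIs were over 3-fold higher in the library labelled Bap1ΔMPC and 2 were over 3-fold lower, beside 3.15% and 2.12% of all genes. The counts were 3 and 2 of 75 in Dpp4-type cells (1.89% and 1.63% of all genes) and 8 and 3 of 86 in the other cells (3.68% and 2.18%). The median log2 ratio of the 86 genes was 0.12 in all cells, beside 0.10 for all genes. TMM scaling left 4 higher and 4 lower in all cells: *Bdnf* (log2 ratio 1.57), *Il6ra* (1.52) and *Agrn* (1.51) fell below 3-fold, while *Lif* (-1.66) and *Metrn* (-1.63) passed it. The counts for each list below are for all cells and read against the same 3.15% and 2.12%.

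In the neurotrophin system, 3 of 26 genes were over 3-fold higher in all cells (*Bdnf*, *Sorcs1* and *Sorcs3*) and 0 were over 3-fold lower. *Sorcs3* and *Sorcs1*, which encode sorting receptors of the VPS10 family, were barely detected in the library labelled Bap1WT. *Sorcs3* had 3 and 65 UMIs, a log2 ratio of 4.48 (2.87 to 6.79), and *Sorcs1* had 3 and 19 UMIs, a log2 ratio of 2.71 (0.94 to 5.10). Both reached 20 UMIs only through the library labelled Bap1ΔMPC, and the interval for *Sorcs1* reached below 3-fold, to 1.92-fold.

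In the GDNF family system, 2 of 25 genes were over 3-fold higher in all cells (*Gdnf* and *Sdc3*) and none was over 3-fold lower. The list as a whole did not move up, with a median log2 ratio of 0.03, beside 0.10 for all genes. *Sdc3*, which encodes the heparan sulfate proteoglycan syndecan-3, a further receptor for GDNF, had 214 UMIs (4.19 CPM) and 783 UMIs (15.8 CPM), a log2 ratio of 1.91 in all cells and 2.28 in Dpp4-type cells. Among CNTF and LIF cytokines and their receptors, 1 of 12 was over 3-fold higher in all cells. This was *Il6ra*, the interleukin-6 receptor gene, with 926 UMIs (18.2 CPM) and 2762 UMIs (55.8 CPM). *Lif*, which encodes leukemia inhibitory factor, was over 3-fold lower in Dpp4-type cells, at 4.32 and 1.02 CPM.

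Among the other trophic factors, 1 of 24 genes was over 3-fold higher (*Agrn*) and 2 were lower (*Hgf* and *Met*) in all cells. *Agrn*, which encodes agrin, had 283 UMIs (5.55 CPM) and 839 UMIs (16.9 CPM), a log2 ratio of 1.61. Agrin can organize acetylcholine receptors at the neuromuscular junction, but 3′ gene counts cannot tell its splice forms apart. *Hgf*, hepatocyte growth factor, had 5.98 and 1.94 CPM, and *Met*, its receptor, had 8.70 and 1.64 CPM, so this ligand and its receptor were both lower in the library labelled Bap1ΔMPC. *Igf2* passed 3-fold in the cells outside the Dpp4-type class, at 10.2 and 32.5 CPM (a log2 ratio of 1.67, and 1.56 with TMM), and *Metrn*, which encodes meteorin, was over 3-fold lower there, at 10.4 and 3.45 CPM. *Metrn* was named after its values were seen.

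**Figure D5:**
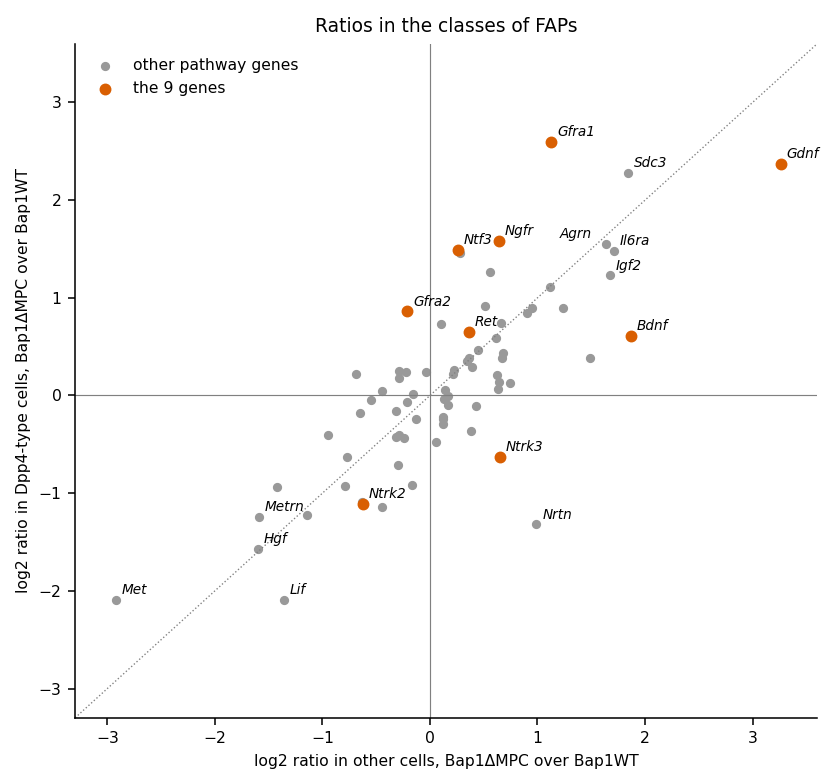
Each point is 1 gene of the 4 lists with at least 20 UMIs, with its log2 ratio (library labelled Bap1ΔMPC over library labelled Bap1WT) in other cells on the x axis and in Dpp4-type cells on the y axis. The 9 genes are marked, and *Gfra1* stands high on the y axis at 2.60 while *Met* lies at the lower left.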

How the data were processed

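The authors aligned the reads of 2 10x Chromium 3′ libraries and, per their methods, filtered cells for quality, gated out doublets and removed cells with markers of other cell types before deposit; no doublet caller was run here. The submitters' processing notes name Cell Ranger 3.1.0, Seurat 3.2.1 and mm10. The deposited values are raw UMI counts of each gene in each cell, not normalized. Cells held 1501 to 4998 detected genes and at most 5% mitochondrial UMIs, and all cells were kept. UMIs were summed per library and set of cells and divided by the total of that set (CPM). Ratios have exact conditional 95% intervals, levels exact Poisson intervals and shares exact binomial intervals, all of which cover counting error only. Genes with at least 20 UMIs, summed over the libraries, were counted when over 3-fold, with 3 in place of a count of 0. No test was run, since each genotype was 1 library and cells are not replicates.

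The 9 genes, the lists, the score and the alternatives were chosen with earlier results of these data known. The genes named are the 9, the 12 genes of the lists with the largest ratio over 3-fold in any set of cells, the 3 genes most like each of the 9 with at least 200 UMIs in each library, and markers that check a label. For clusters, Scanpy 1.11.5 was used with 5000 variable genes, 8 principal components, 20 neighbors and a resolution of 0.5, leaving out 100 genes of these pathways, of which 2 are not reported here and stand in no list count. Cells were thinned to 5000 UMIs, which left out 120 and 210 shallower cells. The alternatives were TMM factors (edgeR 4.0.16), other cell filters, score cuts, minimum counts and folds. The scripts ran in Python 3.11.15, SciPy 1.17.1 and R 4.3.3 and were tested on simulated data. Promoter sequences are from RefSeq. Protein sequences were not used here.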

Additional observations from a re-analysis of the deposited data

Results flagged for a closer look

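Of 75 genes of the lists, the 9 included, that had at least 20 UMIs in each class, 5 were higher in the library labelled Bap1ΔMPC in one class of cells and lower in the other, with both counting intervals clear of 0. Of all 12444 genes with as many UMIs, 352 (2.83%) were. These differences between the classes were not tested, since each genotype was 1 library. *Ntrk3* had a log2 ratio of -0.63 in Dpp4-type and 0.65 in other cells, a difference of -1.28. *Gfra2* had 0.86 and -0.21, a difference of 1.07, and without cells with a tendon marker UMI the interval in other cells included 0. *Nrtn*, which encodes neurturin, the preferred ligand of the *Gfra2* product, had -1.32 (3.90 and 1.56 CPM) and 0.99 (4.53 and 9.0 CPM), a difference of -2.31. *Gfra2* and *Nrtn* thus lay in opposite directions in each class. For *Il6* the log2 ratios were -0.29 and 0.12, a difference of -0.41, and for *Grb10* -0.24 and 0.12, a difference of -0.36. *Nrtn*, *Il6* and *Grb10* were named after their values were seen. In *Grb10* and *Il6* the ratio in other cells was 0.12, close to the median of all genes there, 0.11.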

How the results depend on the processing

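With 1 library per genotype no library could be left out. No paired analysis was possible because only 1 library was made of each genotype. None of 324 alternative values turned the direction of a ratio whose interval excluded 0, among 45 ratios, and 289 stayed within the interval of the value in the report. TMM scaling lowered the log2 ratios by 0.10, 0.07 and 0.11 in all, Dpp4-type and other cells. With it *Ret* had 0.34 in all and 0.25 in other cells, *Ntrk2* -0.78 and -0.73, and *Gfra1* 1.02 in other cells. *Bdnf* in all cells then had 1.57 and, without cells with a cycling marker UMI, 1.46, both below 3-fold. Without cells with an adipocyte marker UMI, an alternative chosen after seeing the data, *Ntrk2* had -0.81 in all and -0.73 in other cells. Without cells with a tendon marker UMI, also chosen after seeing the data, *Gfra1* had 1.45 in all and 1.31 in other cells, *Gfra2* 0.09 in all cells and *Ntrk3* 0.97 in other cells.

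The cut of the score moved the most values. In Dpp4-type cells a cut at 15 gave 1.0 for *Ntf3* (1.90 at 40, over 3-fold), 2.07 for *Gfra1* (3.07 at 40), 0.36 for *Gfra2* and -0.26 for *Ntrk3*, and *Ntrk2* in other cells had -0.70 at 40. Thinning gave -0.98 for *Ntrk3* in Dpp4-type cells, and leaving out the 5% of cells with the most UMIs gave 0.50 for *Ret* there. The log2 ratio of Dpp4-type over other cells in the library labelled Bap1WT at a cut of 15 was -2.04 for *Ntf3* (-3.36 at 40), -1.86 for *Gfra1* (-3.11 at 40), -1.62 for *Ntrk2* (-2.44 at 40), -1.26 for *Gfra2*, -0.13 for *Ret*, -3.17 for *Ngfr* and 0.83 for *Ntrk3*. Its value in the library labelled Bap1ΔMPC was -1.30 for *Ntf3*, -0.91 for *Gfra1*, -2.20 for *Ntrk2* (-2.87 at 40) and 0.12 for *Ret* (-0.23 at 40), which changed sign.

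Counts of genes over 3-fold moved with the minimum and the fold, by construction. With at least 100 UMIs, higher and lower genes numbered 224 and 161 in all cells, 83 and 84 in Dpp4-type cells and 231 and 151 in other cells. With no minimum they numbered 815 and 533, 498 and 448, and 887 and 562. At over 2-fold they numbered 977 and 791, 543 and 565, and 1031 and 749. Of the pathway genes, 12 were then higher and 9 lower in all cells, 11 and 9 in Dpp4-type cells, and 13 and 10 in other cells. In all cells TMM left 4 higher and 4 lower, and 4 were lower without the cells of most UMIs, without cells with an adipocyte marker UMI, or after thinning. In Dpp4-type cells 5 were higher without the cells of most UMIs, and 6 without adipocyte-marker cells or at a cut of 40, and 1 was lower with at least 100 UMIs and 4 without tendon-marker cells. In other cells 5 were higher with at least 100 UMIs, and 1 was lower without Schwann-marker cells or at a cut of 15.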
